A study of Homo sapiens with 8 samples.

Results

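The genes described here are 35 genes of keratinocyte terminal differentiation and the cornified envelope, measured in CAL-27, a human cell line from a squamous carcinoma of the tongue. They were taken as every probe whose gene name in the scanner tables is on the list, with the signal of that probe read from the authors' table of values. Of the 35 genes, 32 had a probe, out of 18093 gene symbols named on the array, and 24 lay above background on at least 2 of 8 arrays and entered the tests, out of 12910 genes tested. SPRR2A, KRTDAP and SBSN had no probe under their own name.

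The single-colour arrays fall into 3 groups. In the first, cells were treated for 24 h with enzastaurin at 10 µM, an inhibitor of protein kinase C (3 arrays). In the second they were treated for 24 h with a compound that the labels name only as Go, at a dose they do not give (2 arrays), and the last is the control without inhibitor (3 arrays). Cells of all groups were grown in serum and then starved of it for 24 h before this treatment. The labels do not say whether replicates came from separate cultures, and the p-values rest only on how far these arrays spread, which may be technical.

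Terminal differentiation is the program by which keratinocytes leave the basal layer of a stratified epithelium, exchange their keratins and build a cornified envelope under the plasma membrane. Envelope proteins such as involucrin, loricrin and the small proline-rich (SPRR) and late cornified envelope (LCE) proteins are joined by transglutaminases onto a scaffold of periplakin and envoplakin, and lipids are then attached to it. Epidermis does this with KRT1 and KRT10, whereas the lining of the mouth, from which squamous carcinomas of the head and neck arise, uses KRT4 and KRT13 over most of its surface. Protein kinase C is a known regulator of this program in epidermal keratinocytes, in part through AP-1 transcription factors.

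Each array carried 45220 spots of 41000 probes, and 52.1% to 57.3% of the probes lay above background, that is, had a signal-to-noise score over 3. Values are given as normalised intensity, the authors' background-subtracted intensity after quantile normalisation between arrays. Differences are log2 differences of normalised intensity plus 50, from limma, with adjusted p-values over all 12910 genes, and a gene is said to have risen or fallen where the adjusted p was under 0.05. The added 50 understates the change of dim genes. The labels do not name slides, which were inferred from the positions of the spots. By that inference slide 1 held the 3 control arrays with Go 1, and slide 2 held the 3 enzastaurin arrays with Go 2. Enzastaurin and control thus shared no slide, and a fit that takes the slide as a block can set them against each other only through the Go arrays. The basal keratin KRT5 lay above background on every array, at 14770 to 20270, and so did KRT14, at 4077 to 10310, both of them marking stratified keratinocytes. Of 6 leukocyte markers CD3E, CD14 and HLA-DRA lay above background on all 8 arrays, and PTPRC and LYZ on none. Of 5 endothelial markers VWF lay above it on all 8, and PECAM1, KDR and TEK on none, and of 6 fibroblast markers COL1A1 and LUM lay above it on 7 arrays each, and PDGFRB on none.

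The promoters of SCEL, KRT4, SPRR1A, SPRR1B and CALML3 are shown, a choice made after their values were seen: SCEL, KRT4 and SPRR1A differed between the compounds, CALML3 rose with both, and SPRR1B is a close relative of SPRR1A in the same gene cluster. Each line holds the 250 bases before the gene's start, 5′ to 3′ on the gene's strand, from RefSeq on GRCh38.p14. Capitals mark letters found by 3 searches on both strands. These were TGANTCA, the site of AP-1 factors, TATAAA, the TATA box, and CCNCNCCC, bound by Krüppel-like and SP factors. No 2 of the marked sites overlap.
SCEL promoter: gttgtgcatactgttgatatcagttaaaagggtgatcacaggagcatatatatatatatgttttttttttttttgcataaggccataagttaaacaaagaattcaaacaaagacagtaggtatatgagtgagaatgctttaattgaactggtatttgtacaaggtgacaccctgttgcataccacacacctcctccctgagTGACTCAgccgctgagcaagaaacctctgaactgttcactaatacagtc
KRT4 promoter: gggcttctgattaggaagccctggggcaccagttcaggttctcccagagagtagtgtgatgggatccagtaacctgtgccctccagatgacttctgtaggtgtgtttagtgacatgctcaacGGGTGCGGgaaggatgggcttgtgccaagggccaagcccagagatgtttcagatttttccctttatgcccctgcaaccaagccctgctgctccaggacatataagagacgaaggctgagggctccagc
SPRR1A promoter: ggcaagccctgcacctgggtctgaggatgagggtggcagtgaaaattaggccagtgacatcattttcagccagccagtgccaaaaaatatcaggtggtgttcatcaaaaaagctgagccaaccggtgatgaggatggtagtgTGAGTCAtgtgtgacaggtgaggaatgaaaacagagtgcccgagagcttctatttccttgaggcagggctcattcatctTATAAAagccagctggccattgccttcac
SPRR1B promoter: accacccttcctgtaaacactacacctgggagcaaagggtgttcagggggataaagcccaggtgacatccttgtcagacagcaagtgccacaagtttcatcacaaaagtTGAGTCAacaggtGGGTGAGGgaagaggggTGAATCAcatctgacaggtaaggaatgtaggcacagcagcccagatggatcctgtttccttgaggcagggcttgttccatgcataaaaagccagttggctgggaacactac
CALML3 promoter: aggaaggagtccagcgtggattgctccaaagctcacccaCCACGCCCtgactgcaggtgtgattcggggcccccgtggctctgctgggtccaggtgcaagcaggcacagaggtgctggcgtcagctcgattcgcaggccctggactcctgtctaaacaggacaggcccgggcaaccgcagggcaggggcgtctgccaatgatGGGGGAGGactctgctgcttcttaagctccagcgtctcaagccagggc

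The SCEL window lies at chr13:77535456-77535705 on the plus strand and held an AP-1 match, TGACTCA, at bases -49 to -43 from the start. The KRT4 window lies at chr12:52814117-52814366 on the minus strand and held 1 match, GGGTGCGG, the reverse complement of the Krüppel-like and SP letters. SPRR1A, at chr1:152983831-152984080 on the plus strand, held the AP-1 match TGAGTCA at -108 to -102 and a TATA box at -29 to -24. Its neighbour SPRR1B, at chr1:153030953-153031202 on the plus strand, held 2 AP-1 matches, TGAGTCA at -141 to -135 and TGAATCA at -111 to -105, on either side of a GGGTGAGG. The CALML3 window, at chr10:5524711-5524960 on the plus strand, held 2 matches to the Krüppel-like and SP letters and neither of the others. Over all 35116 promoters in the table, 6.57% held the AP-1 letters, 10.7% the TATA box and 53.4% the Krüppel-like and SP letters. Of the 28 listed genes with a promoter in that table, 11 held the AP-1 letters, 11 the TATA box and 16 the Krüppel-like and SP letters. A gene was counted if any of its promoters matched, so these counts are not in the unit of the shares, which are of single promoters. A match is a description of the letters and not a binding site.

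The envelope precursors came first in the comparison of the inhibitors with control. Involucrin (IVL), an early cross-linked precursor of the envelope, had normalised intensities of 60.1, 62.5 and 60.9 on the enzastaurin arrays, 65.1 and 77.6 on the Go arrays, and 171.5, 130 and 113 on the control arrays. All 5 inhibitor arrays lay below all 3 control arrays. IVL fell with enzastaurin (log2 difference -0.75, SE 0.114, limma adjusted p = 0.00102) and with Go (-0.62, SE 0.127, adjusted p = 0.0126). Between Go and enzastaurin its difference was 0.12 (95% interval -0.16 to 0.41, adjusted p = 0.567). In RNA from whole cultures, fewer cells of a kind and less RNA per cell cannot be told apart, for this gene and the others.

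SPRR1A, a small proline-rich precursor, differed between the compounds. It had 4115, 5744 and 4701 on the enzastaurin arrays, 2087 and 2774 on the Go arrays, and 5430, 4453 and 4229 on the control arrays. Both Go arrays lay below every other array, whereas the enzastaurin and control arrays overlapped. SPRR1A fell with Go against control (-0.94, SE 0.175, adjusted p = 0.00978) and was lower in Go than in enzastaurin (-0.98, SE 0.175, adjusted p = 0.0138), and enzastaurin against control gave 0.04 (95% interval -0.31 to 0.39). A second SPRR1A probe gave -0.48 for Go against control (adjusted p = 0.109 over all probes) and -0.51 for Go against enzastaurin (adjusted p = 0.207), so the 2 probes had the same sign and only the first passed. The difference between Go and enzastaurin was also lost without Go 1, enzastaurin 2 or enzastaurin 3, and lay between -0.75 and -1.18 over all 18 alternatives. The related SPRR1B had 2161, 2790 and 2110 with enzastaurin, 1351 and 2075 with Go, and 3110, 2639 and 2357 in control. Both Go arrays were lower than the other arrays, Go 2 by little, and SPRR1B fell with Go against control (-0.66, SE 0.197, adjusted p = 0.0339). That call held in 9 of 18 alternatives and was lost without Go 1, control 1, control 2, enzastaurin 1 or enzastaurin 3, with differences of -0.36 to -0.96. Near-identical copies among the SPRR and LCE genes can share signal on a probe, so values of single copies are uncertain.

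SPRR2B turned on 1 spot. Its probe also matches SPRR2A, SPRR2E and SPRR2F in the file's own hit list, and read 493, 507 and 451 with enzastaurin, 49.8 and 634 with Go, and 451, 570 and 544 in control. Go 1 stood far below the other 7 arrays and Go 2 above them, and no comparison passed the test (Go against control -1.12, SE 0.608, adjusted p = 0.175). In the slide-block fit, which rests on that spot, SPRR2B gave -2.87 for enzastaurin against control (adjusted p = 2.69e-04) and -2.51 for Go against control (adjusted p = 4.68e-05), and without the array Go 1 it gave no call.

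LCE3D, a late cornified envelope protein, was dim. It read 23.1, 24.9 and 14.9 with enzastaurin, where no array lay above background, 35 and 14 with Go, where 1 did, and 58.1, 41.2 and 46.5 in control, where 2 did. Every control array was higher than every inhibitor array. Its fitted difference was -0.47 for enzastaurin against control (95% interval -0.75 to -0.20, adjusted p = 0.0106), where the enzastaurin side is at background and the true level may be lower, and for Go it was -0.42 (SE 0.137, adjusted p = 0.0467). Neither call held with the slide as a block, where the differences were -0.06 and -0.21, and the call for Go held in 5 of 17 alternatives and was lost when any 1 array except Go 1 was left out (-0.21 to -0.72).

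The remaining tested precursors did not pass in any comparison. SPRR3 read 319 to 408 with enzastaurin, 299.6 and 412 with Go and 358 to 496 in control. Cornifelin (CNFN) read 829.5 to 934, 853 and 962, and 680 to 899 in the same order. Loricrin (LOR), the main protein of the epidermal envelope, lay above background on 0 enzastaurin arrays, 1 Go array and 2 control arrays, with at most 37.3 on any. Together, 2 of 8 tested precursors fell and 0 rose with enzastaurin, where 36.9% of all genes tested fell and 18.1% rose. With Go 4 fell and 0 rose, where 19.9% of all genes fell and 11.7% rose.

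**Figure D1:**
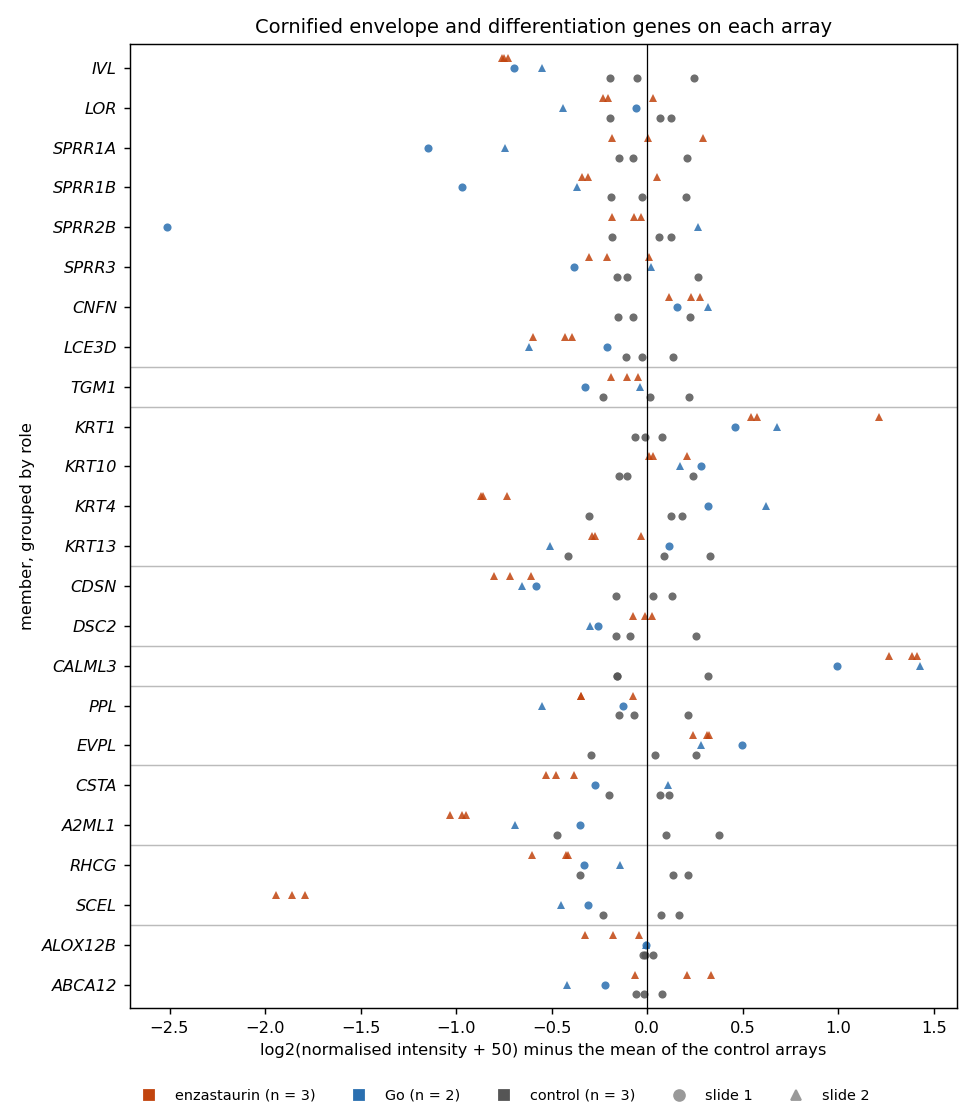
Each tested gene on each array, as log2(normalised intensity + 50) minus the mean of the 3 control arrays, with genes grouped by role; colours are the groups and marker shapes the slides (circles, slide 1; triangles, slide 2). IVL, CDSN and CALML3 lie apart from control on all 5 inhibitor arrays, SCEL is lowest on the 3 enzastaurin arrays, and SPRR2B has 1 low point, Go 1.

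Of the cross-linking enzymes only TGM1, the transglutaminase at the keratinocyte membrane, was above background. It read 29.4, 37.5 and 34.2 with enzastaurin, 22.2 and 38.1 with Go, and 55.4, 41.2 and 27.1 in control, with the groups overlapping. Its difference was -0.11 for enzastaurin against control (95% interval -0.40 to 0.17) and -0.18 for Go against control (-0.50 to 0.14). TGM3 and TGM5 were not above background on any array.

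The plakin scaffold did not pass the test. Periplakin (PPL) read 649.5, 529 and 529 with enzastaurin, 625 and 453 with Go, and 804, 651 and 615 in control, and its difference was -0.25 for enzastaurin and -0.34 for Go (adjusted p = 0.156 and 0.128). Envoplakin (EVPL) read 637, 604 and 644 with enzastaurin, 731 and 623 with Go, and 401, 520 and 610 in control. Its arrays overlapped between enzastaurin and control (difference 0.29, adjusted p = 0.0918) and, with Go, both lay above control (0.39, SE 0.15, adjusted p = 0.0744). The 2 plakins, which pair with each other in the envelope, thus had differences of opposite sign, neither past the test.

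Of 4 tested suprabasal and mucosal keratins, 1 rose and 1 fell with enzastaurin, where 18.1% of all genes rose and 36.9% fell. With Go 2 rose and 0 fell, where 11.7% of all genes rose and 19.9% fell. KRT1, the epidermal suprabasal keratin, read 236, 395 and 230.2 with enzastaurin, 214 and 257 with Go, and 152, 134 and 140.2 in control. All inhibitor arrays were above all control arrays, and enzastaurin 2 was the highest. KRT1 rose with enzastaurin (0.78, SE 0.168, adjusted p = 0.00466) and with Go (0.57, SE 0.188, adjusted p = 0.0468). The rise with Go held in 6 of 18 alternatives and was lost when any 1 array except enzastaurin 2 was left out, with differences of 0.46 to 0.68. Its partner KRT10 read 5586, 5658 and 6414 with enzastaurin, 6761 and 6255 with Go, and 5009, 5153 and 6545 in control, and did not pass in either comparison (0.09 and 0.23, adjusted p = 0.542 and 0.186).

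KRT4, a keratin of the mucosal suprabasal layers, went opposite ways with the 2 compounds. It read 27.6, 34.4 and 26.8 with enzastaurin, 125 and 167 with Go, and 109, 103 and 64 in control. Every enzastaurin array lay below every control array, and both Go arrays lay above it. KRT4 fell with enzastaurin (-0.82, SE 0.139, adjusted p = 0.00155), rose with Go (0.47, SE 0.155, adjusted p = 0.0465) and was higher in Go than in enzastaurin (1.29, SE 0.155, adjusted p = 0.00283). On slide 2 alone, Go 2 was higher than the mean of the enzastaurin arrays by 1.44, and on slide 1 alone Go 1 was higher than the control mean by 0.32. The rise with Go against control held in 5 of 18 alternatives and was lost when any 1 array except Go 1 was left out, with differences of 0.32 to 0.62. Its mucosal partner KRT13 read 278, 343 and 283 with enzastaurin, 384 and 232 with Go, and 377, 454 and 251 in control, and Go against enzastaurin gave 0.00 (95% interval -0.53 to 0.53).

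Among the desmosomal members, corneodesmosin (CDSN), which the outer layers secrete onto modified desmosomes, read 59.1, 65.9 and 74.7 with enzastaurin, 77.3 and 70.8 with Go, and 144.5, 158.5 and 120.3 in control. All 5 inhibitor arrays were below the lowest control array. CDSN fell with enzastaurin (-0.71, SE 0.0974, adjusted p = 6.89e-04) and with Go (-0.62, SE 0.109, adjusted p = 0.00831), with 0.09 between Go and enzastaurin (95% interval -0.15 to 0.34). A second CDSN probe was not above background. Desmocollin 2 (DSC2), found in all epithelial desmosomes, read 78.1, 74.6 and 69.3 with enzastaurin, 55.1 and 52 with Go, and 100, 62.3 and 68 in control, where both Go arrays were the lowest of all 8 but the test was not passed (-0.28, adjusted p = 0.111). Desmoglein 1 (DSG1) and desmocollin 1 (DSC1), the desmosomal cadherins of differentiated epidermis, were not above background on any array.

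CALML3, a calmodulin-like calcium-binding protein of epithelial cells, rose with both compounds. It read 396, 404 and 360.4 with enzastaurin, 289 and 408 with Go, and 102.5, 103 and 162 in control. Every inhibitor array was above every control array. CALML3 rose with enzastaurin (1.36, SE 0.154, adjusted p = 3.79e-04) and with Go (1.21, SE 0.172, adjusted p = 0.00467), and the 2 compounds differed by -0.15 (Go minus enzastaurin, 95% interval -0.54 to 0.24). On slide 1 alone, Go 1 was higher than the control mean by 0.99, and on slide 2 alone Go 2 differed from the enzastaurin mean by 0.07.

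Both protease inhibitors were lower with enzastaurin. Cystatin A (CSTA), an inhibitor of cysteine proteases that is also cross-linked into the envelope, read 8340, 8892 and 8025 with enzastaurin, 9616 and 12510 with Go, and 12590, 12190 and 10120 in control. Each enzastaurin array lay below all Go and control arrays. CSTA fell with enzastaurin (-0.46, SE 0.122, adjusted p = 0.0121), but a second CSTA probe, above background on 4 arrays, gave -0.01 (adjusted p = 0.97), so the probes disagreed. The call was lost too with arrays scaled to the median or the 75th percentile, with differences of -0.16 to -0.84 over 18 alternatives. A2ML1, a broad protease inhibitor of the granular layer, read 173, 183 and 186 with enzastaurin, 307 and 232 with Go, and 542, 439 and 279 in control. The 3 enzastaurin arrays were the lowest, and A2ML1 fell with enzastaurin (-0.98, SE 0.193, adjusted p = 0.00301), whereas Go, which overlapped control, gave -0.52 (adjusted p = 0.0886).

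SCEL, sciellin, a precursor of the envelope, had the largest difference among the 24 tested genes in both comparisons with enzastaurin. It read 281, 297 and 263 with enzastaurin, 920 and 828 with Go, and 1297, 1213 and 972.5 in control. The 3 groups did not overlap, and enzastaurin averaged 280.1 ± 17 (SD, n = 3), Go 874 ± 64.7 (SD, n = 2) and control 1161 ± 168 (SD, n = 3). SCEL was 3.65-fold lower with enzastaurin than in control on the scale used (-1.87, SE 0.112, adjusted p = 8.36e-05) and 2.80-fold higher in Go than in enzastaurin (1.48, SE 0.126, adjusted p = 8.28e-04). The fall with Go against control was small (-0.38, SE 0.126, adjusted p = 0.0464). It held in 7 of 18 alternatives and was lost without Go 2, control 1, control 2 or any 1 enzastaurin array, with differences of -0.24 to -0.50. Within slide 2, Go 2 exceeded the enzastaurin mean by 1.41, and with the slide as a block enzastaurin against control gave -1.72 (adjusted p = 0.00808).

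RHCG, an ammonium transporter of squamous mucosa, read 1406, 1607 and 1596 with enzastaurin, 1709 and 1950 with Go, and 2516, 2377 and 1682 in control. Every enzastaurin array was below every Go and control array, the nearest by little. RHCG fell with enzastaurin (-0.48, SE 0.147, adjusted p = 0.0216). Without control 1 or control 2, enzastaurin 1 or enzastaurin 3, or with arrays scaled to the median, that call was lost, with differences of -0.21 to -0.67 over 18 alternatives. Cornulin (CRNN), a mucosal fused-type S100 protein, was not above background, although its normalised values were 4.99 to 8.15 with enzastaurin, 1.5 and 13.1 with Go and 26.2 to 51.5 in control.

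The lipid barrier members did not pass. ABCA12, the lipid transporter of lamellar granules, read 296, 236 and 327 with enzastaurin, 207 and 173 with Go, and 237, 246 and 265 in control. Both Go arrays were the lowest of the 8, with a difference of -0.48 for Go against enzastaurin (SE 0.127, adjusted p = 0.054) and -0.32 for Go against control (adjusted p = 0.0804). ALOX12B, a lipoxygenase of the barrier, lay above background on 1 array in each group, with at most 29.1.

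**Figure D2:**
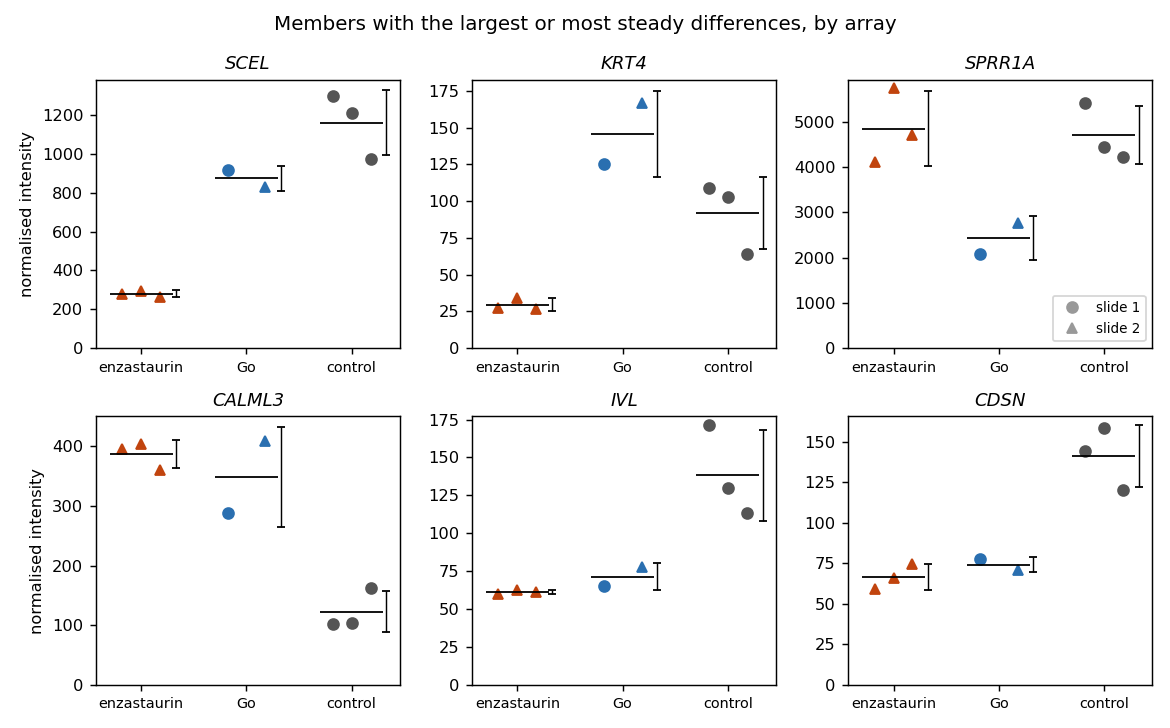
Normalised intensity of 6 genes on each array, enzastaurin, Go and control from left to right; bars are group means, whiskers the SD, and marker shapes the slides. SCEL is lowest with enzastaurin at 263 to 297, KRT4 is low with enzastaurin and high with Go, SPRR1A is low only on the Go arrays among these 8, and CALML3 is high and IVL and CDSN low on all 5 inhibitor arrays.

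In all, 8 of the genes with a probe were not above background on any array: CALML5, CRNN, DSC1, DSG1, FLG, KRT2, TGM3 and TGM5. Their 10 probes had deposited intensities of 0.5 to 45 and signal-to-noise scores of at most 1.89. FLG, filaggrin, the keratin-bundling protein of the granular layer, was covered by 3 of these probes, at 0.5 to 7. Several of them are markers of late epidermal differentiation, and for these genes no change could be measured on these arrays. A probe that the files name UNQ467 carries the accession of KRTDAP and had deposited intensities of 12, 21 and 20 with enzastaurin, 24 and 16 with Go and 24, 18 and 7 in control, above background on 1 array.

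Counted over the 24 tested genes, 10 passed the test for enzastaurin against control, 2 higher and 8 lower, where 55.1% of all genes tested passed (18.1% higher and 36.9% lower). The 2 that rose were CALML3 and KRT1, and the 8 that fell were SCEL, A2ML1, KRT4, IVL, CDSN, RHCG, LCE3D and CSTA. The groups did not overlap for 11 of the 24 genes, against 68.5% of all genes. The median difference was -0.17 over the 24 genes and -0.14 over all genes. The share that passed, 41.7%, was below the background and the median close to it, so the genes as a list are not set apart here, and the result lies in the single genes. Scaling arrays to the median in place of quantile normalisation moved the median of all genes to 0.02. In that setting 12 of the 24 genes passed, 6 higher and 6 lower, where 6068 of all 12910 genes passed, 56.28% of them higher. KRT10, CNFN, EVPL and ABCA12 were added to the rises and CSTA and RHCG were lost. The counts of the 24 genes were thus near the background there too.

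For Go against control 9 of the 24 passed, 3 higher (CALML3, KRT1 and KRT4) and 6 lower (SPRR1A, SPRR1B, IVL, CDSN, LCE3D and SCEL), where 31.5% of all genes passed (11.7% higher and 19.9% lower), so the share of 37.5% was near the background. The groups did not overlap for 12 genes, against 56.9% of all genes, and the median was -0.24 over the 24 genes and -0.11 over all genes. That count rested on the spread estimated with the enzastaurin arrays: with only the Go and control arrays in the fit, 1 of the 24, CALML3, passed. In that fit 1.89% of all genes passed. The count was also 4 without control 1, control 2, enzastaurin 1 or enzastaurin 3. In those fits 1810, 1011, 2647 and 2903 of all 12910 genes passed, against 4072 with all arrays. With arrays scaled to the median 4 were higher and 3 lower, where 23.0% of all genes passed. With the 75th percentile 1 was higher and 5 lower, where 29.9% of all genes passed.

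For Go against enzastaurin 3 of the 24 passed, SCEL and KRT4 higher and SPRR1A lower, where 7.44% of all genes passed (4.52% higher and 2.93% lower), a share of 12.5% that rests on 3 genes. The groups did not overlap for 11 genes, against 47.8% of all genes, and the median was 0.01 over the 24 genes and 0.04 over all genes. For the other 21, the widest 95% interval was that of SPRR2B, -2.41 to 0.35. With arrays scaled to the median 2 were higher and 2 lower, where 1005 of all 12910 genes passed. The comparisons with control share the same 3 control arrays, so their values stand side by side and no overlap between them is given.

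**Figure D3:**
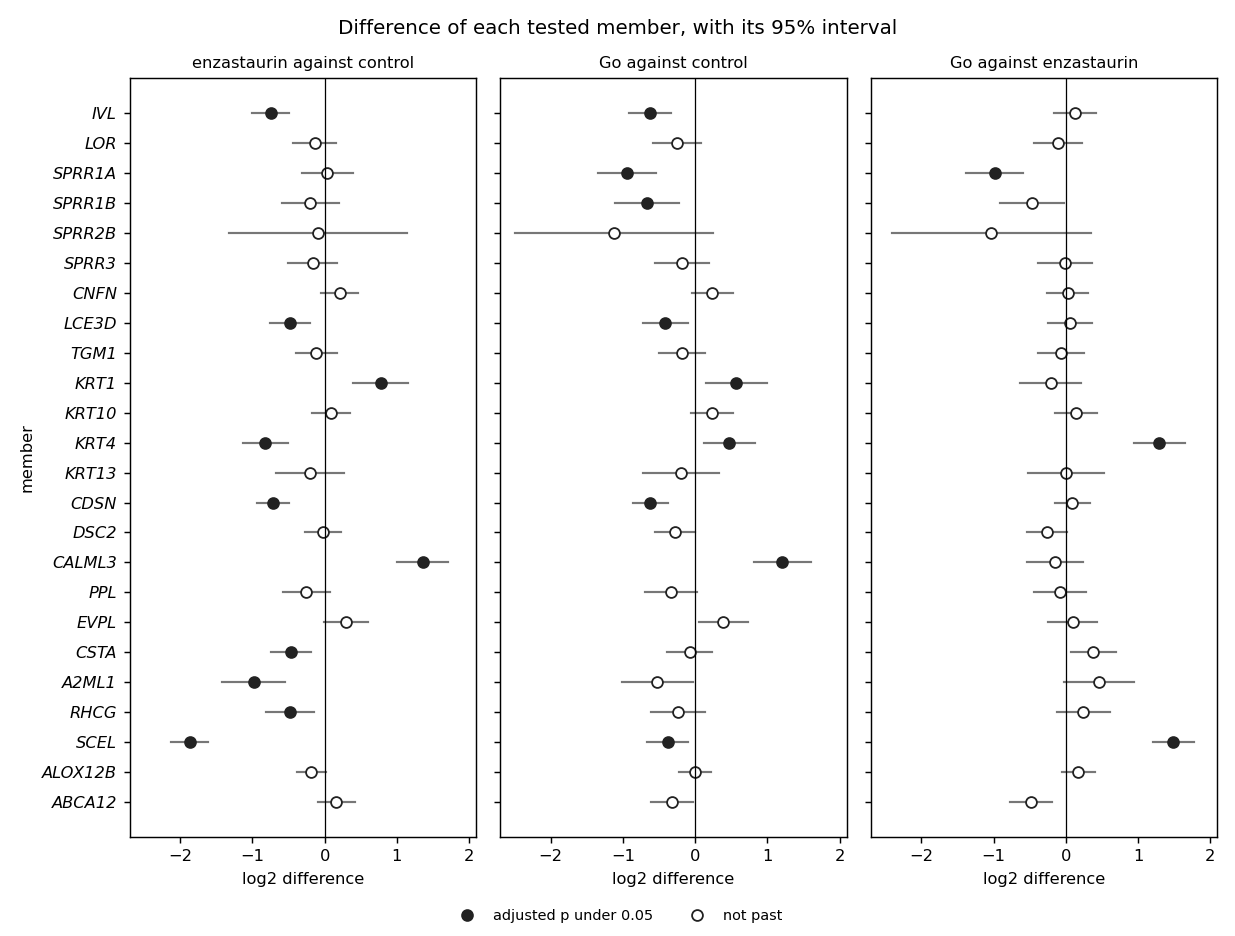
Log2 difference with its 95% interval for the 24 tested genes in each comparison; filled points passed an adjusted p of 0.05. In the panel for Go against enzastaurin the filled points are SCEL (1.48), KRT4 (1.29) and SPRR1A (-0.98).

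With the slide as a block, 2 of the 24 passed for enzastaurin against control, SCEL and, through the single Go 1 spot, SPRR2B. In that fit CALML3 gave 0.92 (adjusted p = 0.0827), KRT4 -1.13 (0.0534), IVL -0.90 (0.0639), CDSN -0.63 (0.0928), CSTA -0.84 (0.0573), RHCG -0.67 (0.184), A2ML1 -0.64 (0.294), KRT1 0.56 (0.303) and LCE3D -0.06 (0.848). These values kept the sign of the fit without the block and missed the threshold, and 3.73% of all genes passed in that fit. For Go against control 6 of the 24 passed with the block, where 6.52% of all genes did, and the fit there compares Go 1 with the controls on slide 1: IVL (-0.70), SPRR1A (-1.14), SPRR1B (-0.96), SPRR2B, CDSN (-0.58) and CALML3 (0.99). For Go against enzastaurin 3 passed with the block, where 7.11% of all genes did: SCEL and KRT4 as before, and CSTA (0.57, adjusted p = 0.0478) in place of SPRR1A (-0.78, adjusted p = 0.0523).

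Of the listed genes, 10 lie in the epidermal differentiation complex, a cluster on chromosome 1, within a run of 41 protein-coding genes of the RefSeq annotation. Of the genes in that run, 7 listed here and 15 other LCE and SPRR genes were tested. With enzastaurin 3 rose, 12 fell and 7 did not pass, against 18.1% rising and 36.9% falling over all genes. The falls were 2 of the 7 (IVL and LCE3D) and 10 of the 15. Of these falls LCE2B, LCE3C and LCE3D lay above background on no enzastaurin array, and so were tested only through other arrays. LCE2C, which fell, and LCE3A, which rose, lay above it on 1 enzastaurin and 1 control array. With Go against control 3 rose and 9 fell, with 4 falls among the 7, against 11.7% and 19.9% of all genes. Between Go and enzastaurin 2 were higher and 1 lower in Go, and 19 did not pass, where 4.52% of all genes were higher and 2.93% lower. Neighbours in the cluster did not all move one way: LCE5A rose with enzastaurin while LCE2A fell, and SPRR1A fell with Go between genes that did not pass or fell less. With the slide as a block, 3.73% of all genes passed for enzastaurin against control. Of the 12 falls with enzastaurin LCE2A and SPRR2G still passed (adjusted p = 0.0428 and 0.0339), and the others did not. The rises of LCE5A, LCE3E and LCE3A were lost, and SPRR2B and SPRR2D passed only in that fit.

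**Figure D4:**
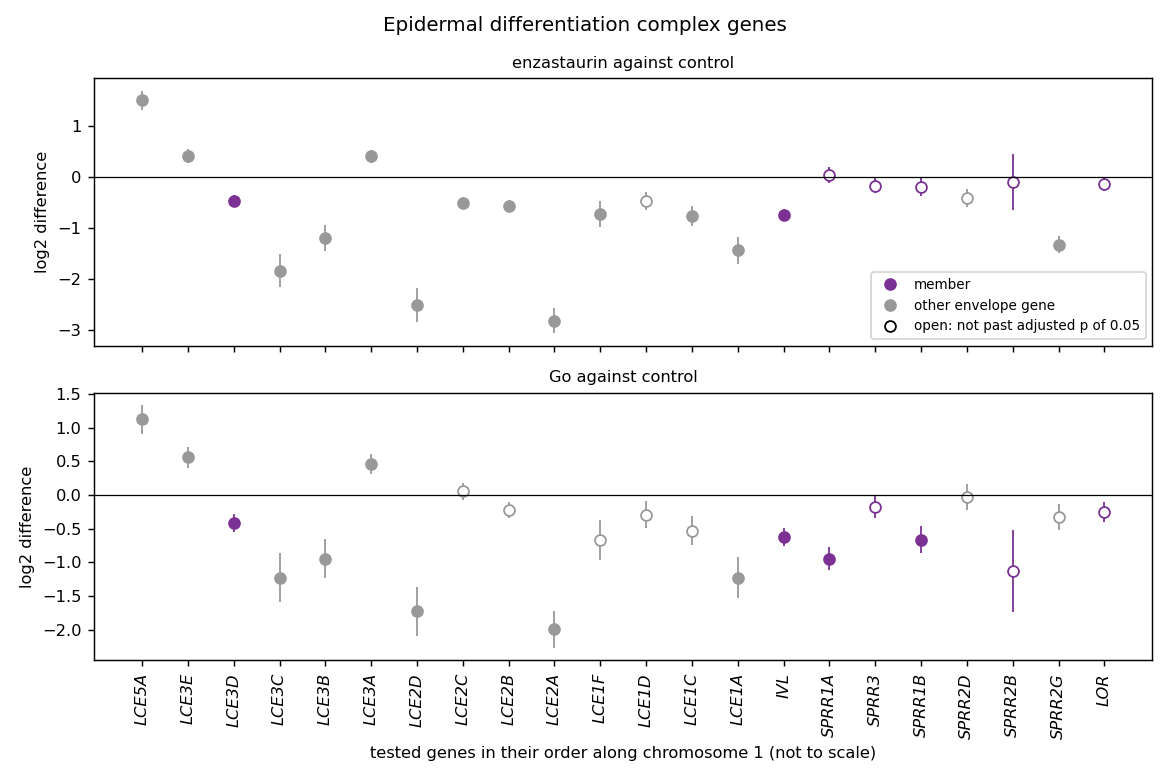
Log2 difference with its SE for the 22 tested genes of the epidermal differentiation complex in their order along chromosome 1, for enzastaurin against control and Go against control; purple points are genes on the list, grey points other LCE and SPRR genes, and open points did not pass. The lowest points are LCE2A (-2.81 with enzastaurin, -2.0 with Go) and LCE2D, and the highest is LCE5A (1.5 and 1.12).

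Other genes of the envelope and granular layer were taken as a list of 38, of which 25 were tested. With enzastaurin 5 rose and 14 fell (18.1% and 36.9% of all genes did), with Go 5 rose and 6 fell (11.7% and 19.9% of all genes), and between Go and enzastaurin 4 were higher and 1 lower in Go (4.52% and 2.93% of all genes). LCE2A read 125.5, 114 and 110.1 with enzastaurin, 307 and 188.5 with Go, and 1551, 1236 and 718 in control, with no overlap between the 3 groups. It fell with enzastaurin (-2.81, SE 0.249, adjusted p = 1.93e-04) and with Go (-2.0, SE 0.278, adjusted p = 0.00436), and stayed past the threshold with the slide as a block in both (-2.23 and -1.71, adjusted p = 0.0428 and 0.0239). LCE2D also fell with enzastaurin and with Go (-2.50 and -1.73, adjusted p = 5.90e-04 and 0.0139), but both calls were lost with the slide as a block (-1.46 and -1.21, adjusted p = 0.134 and 0.0928). LCE3C read 6.49 to 18.3 with enzastaurin, above background on no array, 107 and 3.99 with Go, and 131 to 189.5 in control. LCE5A rose with enzastaurin (1.5, SE 0.187, adjusted p = 4.88e-04), a call lost with that block (0.81, adjusted p = 0.107). Between Go and enzastaurin, EMP1, an epithelial membrane protein, was higher in Go (0.96, SE 0.0846, adjusted p = 9.04e-04), as was SPRR2G (1.0, SE 0.189, adjusted p = 0.0175), and MALL was lower in Go (-0.75, SE 0.11, adjusted p = 0.00655). With the slide as a block 4 of the 25 genes fell and 0 rose with enzastaurin, where 3.73% of all genes passed. The 4 were LCE2A, SPRR2C, SPRR2G and SPRR2D. SPRR2D had not passed without the block (-0.41, adjusted p = 0.074), and it read 954 on Go 1 and 1688 on Go 2. For Go against control 1 rose and 1 fell with the block, where 6.52% of all genes passed.

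Of 30 regulators of keratinocyte differentiation 24 were tested, and 6 rose and 11 fell with enzastaurin (18.1% and 36.9% of all genes did), 4 rose and 2 fell with Go (11.7% and 19.9% of all genes), and 1, GRHL2, was higher in Go than in enzastaurin (0.41, SE 0.105, adjusted p = 0.0498). CEBPA, a transcription factor of the suprabasal layers, read 1211, 2783 and 2183 with enzastaurin, 17000 and 3104 with Go, and 24870, 21310 and 13860 in control. The 2 Go arrays lay apart, Go 1 within the range of the controls on its slide and Go 2 near the enzastaurin arrays on its own. CEBPA fell with enzastaurin (-3.29, SE 0.554, adjusted p = 0.00155), a call lost with the slide as a block (-0.85, adjusted p = 0.387). TP63, the master regulator of stratified epithelia, fell with enzastaurin (-0.73, SE 0.137, adjusted p = 0.00249) and with Go (-0.64, SE 0.153, adjusted p = 0.0188). ID1, an inhibitor of helix-loop-helix factors, rose with enzastaurin (1.08, SE 0.126, adjusted p = 4.01e-04) and with Go (1.22, SE 0.141, adjusted p = 0.00283). HES1, a Notch target, rose with enzastaurin (0.58, adjusted p = 0.0274) and with Go (1.11, SE 0.209, adjusted p = 0.0102), and Go against enzastaurin gave 0.54 (adjusted p = 0.15). With the slide as a block 0 of the 24 regulators passed for enzastaurin against control and 1, ID1, for Go against control (1.01, adjusted p = 0.00572). In that fit 3.73% and 6.52% of all genes passed.

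The counts of the next lists can be read against the 55.1% of all genes that passed for enzastaurin and the 31.5% that passed for Go. Of 11 other desmosome and adherens genes 3 rose and 2 fell with enzastaurin, 0 rose and 2 fell with Go, and 1 was lower in Go than in enzastaurin. DSC3, desmocollin 3, rose with enzastaurin (0.96, SE 0.212, adjusted p = 0.00526) and plakoglobin (JUP) fell (-0.61, SE 0.13, adjusted p = 0.00452). DSG3 fell with Go (-0.47, SE 0.087, adjusted p = 0.00963), a call lost with the slide as a block (-0.41, adjusted p = 0.0514). Of 15 tested barrier lipid genes 3 rose and 6 fell with enzastaurin and 1 rose and 2 fell with Go, with DGAT2, a triglyceride synthase, down with enzastaurin (-0.82, SE 0.0828, adjusted p = 2.74e-04). FA2H, the fatty acid hydroxylase, rose with Go (0.71, SE 0.102, adjusted p = 0.00483). Of 10 tight junction genes 2 rose and 2 fell with enzastaurin and 2 rose and 1 fell with Go. CLDN7 fell with enzastaurin (-0.89, SE 0.112, adjusted p = 5.02e-04) and was higher in Go (0.89, SE 0.126, adjusted p = 0.0055), and occludin (OCLN) rose with both (0.79 and 0.79, adjusted p = 0.00166 and 0.0106). With the slide as a block, 3.73% of all genes passed for enzastaurin against control. In that fit 0 desmosome, 2 barrier lipid and 0 tight junction genes passed. The 2 were DGAT2 (-0.77, adjusted p = 0.0434) and SPTLC2 (-0.83, adjusted p = 0.0183). SPTLC2 had not passed without the block (-0.10, adjusted p = 0.613), and it read 59.8 on Go 1 and 131.8 on Go 2.

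Markers of other cell types were read on the same arrays. Over all genes, 18.1% rose and 36.9% fell with enzastaurin, and 11.7% rose and 19.9% fell with Go. The summed normalised intensity of 5 simple epithelial markers was 34630 to 37380 with enzastaurin, 37840 to 41440 with Go and 27270 to 29560 in control, with 3 rising and 1 falling with enzastaurin and 3 rising and 0 falling with Go. Of these EPCAM rose with enzastaurin (1.57, adjusted p = 2.44e-04), a call lost with the slide as a block (1.21, adjusted p = 0.0508), and KRT8 fell (-0.54, adjusted p = 0.00159). The sum of 9 tested stratified keratinocyte markers was 45440 to 51890, 42470 to 46520 and 47420 to 64360 in the same order. Of the 9, 2 rose and 1 fell with enzastaurin. With Go 0 rose and 5 fell, KRT14, TP63, DSG3, PKP1 and SFN, and with the slide as a block 1 of them, SFN, did. Of the 3 tested leukocyte markers 1 rose, HLA-DRA (1.12, adjusted p = 4.58e-04), 1 fell, CD3E (-0.68, adjusted p = 8.45e-04), and CD14 did not pass with enzastaurin (0.00, adjusted p = 0.974). HLA-DRA made up most of their sum of 1457 to 1646 with enzastaurin, 958.5 and 1275 with Go, and 823 to 924 in control. Of 4 melanocyte markers 3 were tested, and 2 fell with enzastaurin and 1, PMEL, with Go. PMEL read 144, 128 and 104 with enzastaurin, 327 and 179 with Go, and 1179, 1040 and 621 in control. Its fall with enzastaurin (-2.47) was lost with the slide as a block (-1.755, adjusted p = 0.0587), and Go against control gave -1.36 in that fit. MLANA gave -0.28 with enzastaurin and -0.20 with Go, and DCT gave -0.02 and 0.03. With the slide as a block 1 of the 5 simple epithelial markers, KRT7, and 0 of the 3 leukocyte markers passed for enzastaurin against control, where 3.73% of all genes passed. KRT7 read 67.1, 75.8 and 67.1 with enzastaurin, 96.2 and 32.4 with Go, and 5.48, 0.87 and 13.95 in control. It lay above background on no control array, and so was tested only through the inhibitor arrays. Its difference was 1.085 without the block and 1.91 with it, a fit that rests on the 2 unlike Go arrays. The part of these markers in the differences of the envelope genes was not tested.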

How the data were processed

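The deposited value table gives 1 intensity per probe and array, linear and not normalised between arrays; set against the scanner tables, it is the authors' foreground minus background, with 0.5 as its lowest value. The GenePix scanner tables give, per the file headers, spot intensity, a signal-to-noise score and saturated pixels in percent. Their annotation columns run in reverse against the spots on all 8 arrays: replicate spots of a probe had an SD of 3.73 to 4.2 (log2) as deposited and 0.283 to 0.404 once reversed, and the reversed annotation was used.

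Values plus 50 were log2 transformed, quantile normalised and compared with limma 3.58.1 (R 4.3.3; all 8 arrays in 3 groups; Benjamini-Hochberg). A probe was tested if its score exceeded 3 on at least 2 arrays, and the brightest probe stood for its gene. Slides, which the labels do not name, were inferred by splitting the arrays at the largest gap in mean horizontal spot position, 25.6 µm. The next largest gap was 11.7 µm. Positions were 10930.1 to 10951 µm on slide 1 and 10897.1 to 10904.5 µm on slide 2. Arrays with the same replicate number did not deviate together (correlations across genes 0.0244 to 0.172 between enzastaurin and control). The few arrays limit the precision. Alternatives changed signal source, scaling, pseudocount, filter, probe choice, blocks and arrays. Values are given on each array for genes called in at least 1 comparison or among its 5 largest differences, and up to 4 called genes are named per further list. Members and lists were chosen with earlier results of these data known.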

Additional observations from a re-analysis of the deposited data

How the results depend on the processing

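Of the 10 calls for enzastaurin against control, SCEL held in all 18 alternatives (-1.64 to -1.98), and CALML3, CDSN, IVL, KRT4, A2ML1, KRT1 and LCE3D were lost in 1, the slide as a block, where 2 of the 24 genes were called. For Go against control CALML3 held in all (0.99 to 1.42), and IVL, SPRR1A and CDSN were lost in 1, the fit of only the Go and control arrays. That fit called 1 gene, where 1.89% of all genes passed. With no filter on dim probes 5 of 32 genes were called, where 19.3% of 18093 genes passed. For Go against enzastaurin SCEL and KRT4 held in all (1.40 to 1.59 and 1.12 to 1.82). Averaging a gene's probes called 5 there, where 1113 of all 12910 genes passed. Leaving out 1 control or enzastaurin array called 9 to 11, 4 to 10 and 2 to 4 genes in the 3 comparisons. In those fits 5398 to 7617, 1011 to 5484 and 221 to 1458 of all 12910 genes passed. With all arrays 7109, 4072 and 961 passed. Without Go 1 or Go 2 only 1 Go array is left, so no count is given. No called gene changed sign under any alternative run. With the replicate number as a block, 11, 10 and 3 genes were called, where 7025, 4477 and 529 of all 12910 genes passed. The replicate numbers are not known to pair the arrays, and with that block KRT1 and KRT4 were lost for Go against control. The cause of these changes was not tested, except that the 2-group fit and the leave-one-out fits have fewer arrays. Dim genes limit the reading: 8 of 32 had no signal above background, and enzastaurin and control share no slide by the inference from spot positions.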
